A study of Homo sapiens with 28 samples.

Results

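The genes described are 10 components of the elastic fibre: ELN, FBN1, FBN2, FBLN1, FBLN2, FBLN5, EFEMP1, EFEMP2, LOX and LOXL1. They were found by symbol among the 26346 gene symbols counted in 28 mRNA sequencing libraries of AN3CA, an established human endometrial carcinoma cell line. The list was put together around ELN, which had been chosen by its levels across the constructs in these libraries, so ELN is given as a description without a test. Of the 10 genes, 6 passed the filter on low counts together with 14220 genes in all: ELN, FBN1, FBLN1, FBLN2, EFEMP2 and EFEMP1. EFEMP1 passed it through the ARID1B wild type libraries, so it is used in support of no difference. It is left out of the counts of called members, except in the closing section on processing. FBN2, FBLN5, LOX and LOXL1 did not pass and are given as reads.

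The cells carried 1 of 12 constructs of ARID1A or ARID1B, or an empty vector (EV), and received no treatment. ARID1A and ARID1B are alternative DNA-binding subunits of the BAF chromatin remodelling complex. Of ARID1A there were 7 constructs: the wild type (WT), the CBR truncation, the delIDR1 truncation, the DBDmut mutant of the ARID domain, the DDX4 hybrid with an exchanged disordered region (IDR), the AQGscram scramble and 42YS. The 5 ARID1B constructs were WT, M2 (S320_G327del), A457_G461del, Block13del and Block9del. Each construct had 2 libraries and EV had 4. The labels say neither that replicates came from separate cultures nor whether a line was 1 clone. The spread behind each p-value is thus that between libraries of a group and may be technical. In the fit of all libraries the 4 EV libraries are 1 group, so that spread also holds any difference between EV replicates.

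Libraries held 16.6 to 27.9 M gene reads (median 22), so 1 count per M reads (CPM) rests on 17 to 28 reads. The share of stranded gene reads on the counted strand was split into 3 ranges, which the labels do not name. The cuts, at 90 and 98%, were set after the shares were seen. The first library set, EV replicates 1 and 2 with DBDmut, delIDR1, CBR and ARID1A WT, was at 84.5 to 87.8%, and the second was at 98.1 to 98.6% and held DDX4, ARID1B WT, M2 and EV replicates 3 and 4. The third set, at 96.7 to 97.9%, held the 5 other constructs, which have no EV library of their own, so construct and library set cannot be told apart there. ARID1A RNA averaged 374 to 1017 CPM with 6 of the ARID1A constructs and 247 CPM with AQGscram, against 288 CPM in EV, and ARID1B RNA averaged 344 to 4250 CPM with the ARID1B constructs, against 98.03 CPM in EV. The AQGscram construct did not show as a higher ARID1A count. Reads of construct and endogenous transcripts are counted together in these values.

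Elastic fibres give arteries, lung and skin their recoil. Tropoelastin, the product of ELN, is laid onto a scaffold of fibrillin microfibrils made from FBN1 and FBN2. Fibulins guide this step, among them FBLN5 and fibulin-4 (EFEMP2), and the lysyl oxidases LOX and LOXL1 then cross-link the elastin. Such fibres are mostly made by fibroblasts and smooth muscle cells during development.

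Promoter windows of the 4 other well expressed members are shown first, since FBN1, FBLN2 and EFEMP2 rose with wild type ARID1A and ARID1B while FBLN1 did not. Each window runs from 250 bases before to 50 bases after the transcript start, 5′ to 3′ on the gene's strand, from RefSeq on GRCh38.p14; 8 of the 10 members had a window. ELN and EFEMP1 had no window. Capitals mark a match to GGAATG, the core of the TEAD factor motif, searched on both strands.
FBN1, chr15:48644921-48645220, minus strand: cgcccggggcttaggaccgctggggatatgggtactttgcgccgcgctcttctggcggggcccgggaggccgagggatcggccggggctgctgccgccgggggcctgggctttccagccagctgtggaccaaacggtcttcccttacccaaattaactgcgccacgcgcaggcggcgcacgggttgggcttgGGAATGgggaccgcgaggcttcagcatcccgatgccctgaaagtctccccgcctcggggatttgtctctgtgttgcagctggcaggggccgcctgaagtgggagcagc
FBLN2, chr3:13548875-13549174, plus strand: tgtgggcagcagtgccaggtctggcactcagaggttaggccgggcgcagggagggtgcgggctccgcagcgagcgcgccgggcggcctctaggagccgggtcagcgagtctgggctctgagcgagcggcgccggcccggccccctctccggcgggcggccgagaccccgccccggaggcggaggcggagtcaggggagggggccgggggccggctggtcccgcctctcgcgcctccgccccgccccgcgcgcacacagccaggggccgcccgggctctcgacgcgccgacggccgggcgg
EFEMP2, chr11:65872751-65873050, minus strand: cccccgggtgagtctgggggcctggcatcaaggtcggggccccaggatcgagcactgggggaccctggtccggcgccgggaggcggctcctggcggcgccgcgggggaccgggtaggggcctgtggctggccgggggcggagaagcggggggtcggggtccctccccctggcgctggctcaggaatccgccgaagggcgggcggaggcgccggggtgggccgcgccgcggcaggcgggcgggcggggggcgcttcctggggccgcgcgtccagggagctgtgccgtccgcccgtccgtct
FBLN1, chr22:45502633-45502932, plus strand: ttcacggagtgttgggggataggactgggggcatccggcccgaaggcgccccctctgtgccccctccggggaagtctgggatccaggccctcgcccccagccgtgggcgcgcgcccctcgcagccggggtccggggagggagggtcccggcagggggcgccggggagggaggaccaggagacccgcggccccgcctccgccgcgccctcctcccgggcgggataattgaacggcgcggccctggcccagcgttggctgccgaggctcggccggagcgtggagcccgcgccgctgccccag
For FBLN2 the first of 2 listed starts is shown. FBN1 held the single GGAATG among these 4 windows, which starts at position -58 relative to the transcript start. The motif occurs in 14.0% of all 35116 promoter windows of this length. GGGCGG, the GC box, was found 7 times in the FBLN2 window, 6 times in that of EFEMP2, 1 time in that of FBLN1 and 0 times in that of FBN1, and at least 1 GC box is present in 45.0% of all windows. The AP-1 motif TGANTCA and the RUNX motif TGTGGT, searched on both strands, occur in 7.7% and 13.1% of all windows. None of the windows of the 8 members that had one held either motif, and ELN could not be searched. These matches describe letters and say nothing about binding in these cells.

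ELN, the gene for tropoelastin, was close to absent in EV cells and ranged over 2990-fold between group means. Its level was 431 and 451 CPM in the 2 ARID1B WT libraries and 326 and 340.3 CPM in the M2 libraries, against 0.0907, 0.0899, 0.131 and 0.279 CPM in EV. In ARID1A WT it was 43.8 and 46.7 CPM. Every library of these 3 constructs lay far above the highest EV library. In reads, EV held 11 over all 4 libraries (2 to 5 each), whereas ARID1B WT held 17404, M2 16178 and ARID1A WT 1745.

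The other constructs filled the range between them. CBR gave 24.3 and 20.7 CPM, delIDR1 10.5 and 9.97 CPM, and DBDmut 4.42 and 3.92 CPM. A457_G461del gave 19.6 and 21.5 CPM, and Block13del 7.19 and 10.9 CPM. All 10 libraries of these 5 constructs were above every EV library. Lowest were Block9del with 0.969 and 0.608 CPM, DDX4 with 0.381 and 0.739 CPM, AQGscram with 0.272 and 0.357 CPM, and 42YS with 0.340 and 0.165 CPM. AQGscram and 42YS each had a library within the EV range of 0.0899 to 0.279 CPM, whereas Block9del and DDX4 did not.

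The order of mean ELN levels was ARID1B WT (441 ± 14.2 CPM), M2 (333 ± 10.01), ARID1A WT (45.3 ± 2.07), CBR (22.5 ± 2.57), A457_G461del (20.5 ± 1.32), delIDR1 (10.2 ± 0.386), Block13del (9.03 ± 2.60), DBDmut (4.17 ± 0.351), Block9del (0.789 ± 0.255), DDX4 (0.560 ± 0.253), AQGscram (0.315 ± 0.0606), 42YS (0.252 ± 0.124) and EV (0.148 ± 0.0895; SD, n = 2 for each construct and 4 for EV). Neighbours whose libraries overlapped were CBR with A457_G461del, delIDR1 with Block13del, Block9del with DDX4, AQGscram with 42YS, and 42YS with EV. All other neighbours in this order were apart. The last 5 groups rest on few ELN reads per library.

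**Figure D1:**
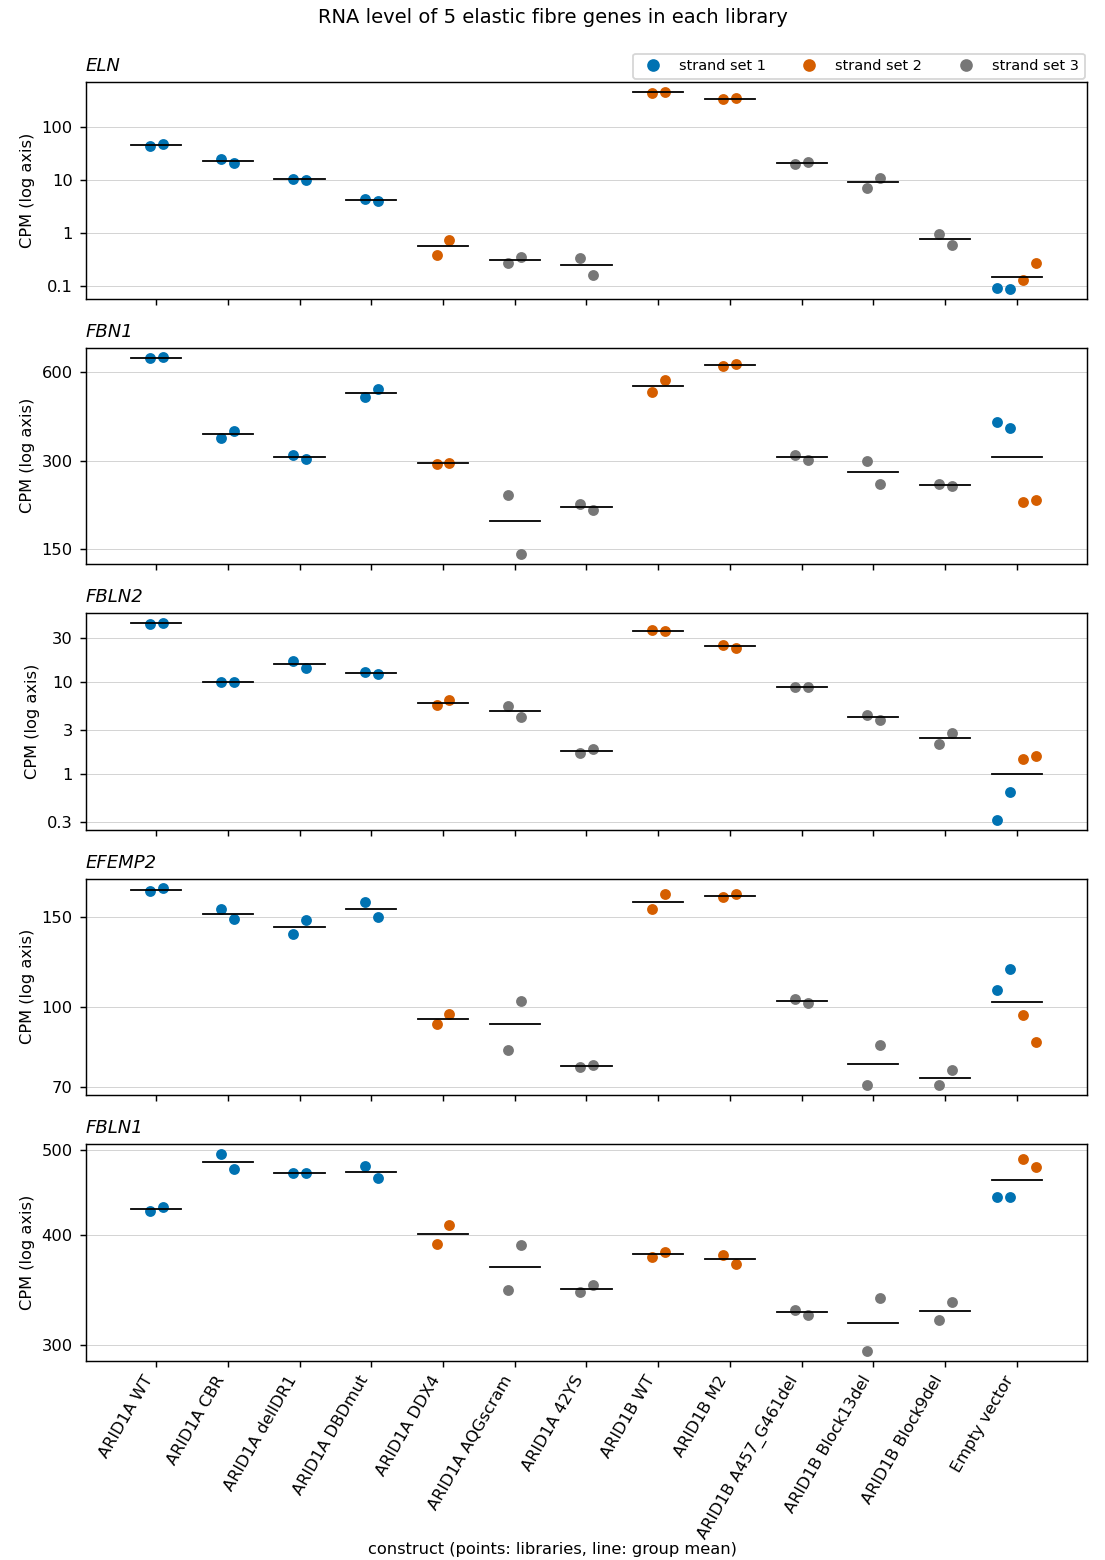
CPM on a log axis of ELN, FBN1, FBLN1, FBLN2 and EFEMP2, 1 panel each, with 1 point per library and a bar at each group mean; the 12 constructs come first and EV last. ELN spans 0.0899 to 451 CPM, whereas FBLN1 stays between 296 and 495 CPM.

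As log2 fold changes against EV, fitted and given without a test, ELN was at 11.54 ± 0.20 (SE) with ARID1B WT, 11.14 ± 0.20 with M2 and 8.26 ± 0.22 with ARID1A WT. Fold changes had the order of the levels. CBR was at 7.25 ± 0.24, delIDR1 at 6.12 ± 0.27 and DBDmut at 4.82 ± 0.32. The corresponding values were 7.12 ± 0.24 for A457_G461del, 5.95 ± 0.27 for Block13del, 2.44 ± 0.46 for Block9del, 1.95 ± 0.48 for DDX4, 1.13 ± 0.58 for AQGscram and 0.80 ± 0.61 for 42YS. With EV replicates 1 and 2 alone as control, which share the library set of the first ARID1A constructs, ARID1A WT was at 8.88, CBR at 7.88, delIDR1 at 6.74 and DBDmut at 5.44. With EV replicates 3 and 4 alone, ARID1B WT was at 10.995, M2 at 10.59 and DDX4 at 1.40. Every one of these 7 was thus above EV by either measure.

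Between constructs, ELN was lower with every mutant than with the wild type of the same protein. Relative to ARID1A WT the log2 difference was -1.01 ± 0.15 (SE) with CBR, -2.14 ± 0.15 with delIDR1 and -3.44 ± 0.17 with DBDmut. With DDX4, which comes from another library set than ARID1A WT, the log2 difference was -6.31 ± 0.22. Relative to ARID1B WT it was -0.41 ± 0.13 with M2. The other ARID1B deletions come from another library set, and there the mean of ARID1B WT was 21.5-fold that of A457_G461del, 48.9-fold that of Block13del and 559-fold that of Block9del. Mutants of both proteins thus covered a wide range of ELN levels. ARID1A WT had 45.3 ± 2.07 CPM and ARID1B WT 441 ± 14.2 CPM, a log2 difference of -3.28 ± 0.15. Taken as the difference between each wild type's response to its own EV pair, it was -2.11 ± 1.21. Both values had the same sign.

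The amount of construct RNA and the level of ELN did not follow one order among the ARID1A constructs. CBR had the most ARID1A RNA (1017 CPM) with 22.5 CPM of ELN, whereas WT had 733 CPM with 45.3 CPM of ELN. DBDmut, at 665 CPM of ARID1A RNA, had 4.17 CPM of ELN, and delIDR1, at 589 CPM, had 10.2 CPM. DDX4 had 523 CPM of ARID1A RNA with 0.560 CPM of ELN, 42YS 374 with 0.252, and AQGscram 247 with 0.315. DDX4, 42YS and AQGscram, from other library sets than ARID1A WT, were thus the lowest ARID1A constructs in both. Among the ARID1B constructs, M2 had the most ARID1B RNA (4250 CPM) and WT came next (3597 CPM), followed by A457_G461del (2236 CPM), Block13del (883 CPM) and Block9del (344 CPM). Apart from M2 and WT, which stood in the opposite order, the ELN levels had that order too. The part of construct amount in the ELN levels was not tested.

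**Figure D2:**
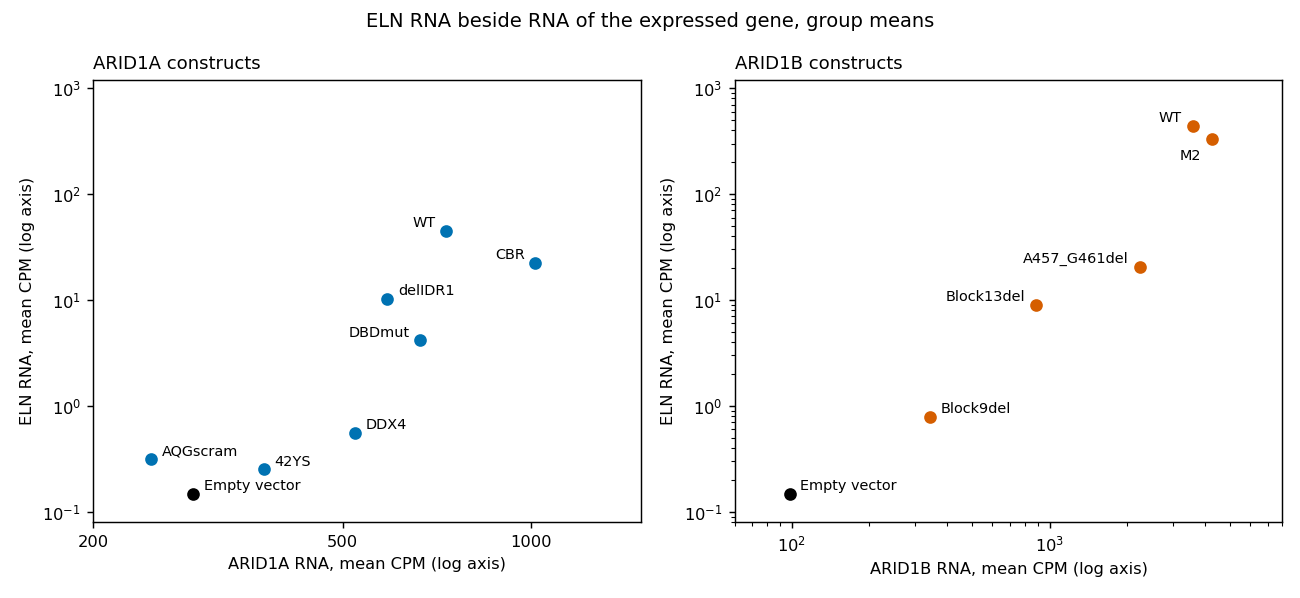
Mean ELN level (CPM, log axis) against mean RNA level of the expressed gene (CPM, log axis). ARID1A constructs and ARID1B constructs have separate panels, both with EV, and each point is a group mean. CBR lies to the right of ARID1A WT and below it, and M2 lies to the right of ARID1B WT and below it.

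FBLN2, which encodes fibulin-2, a binding partner of elastin and fibrillin-1, had the widest range after ELN among the 5 well expressed members, 44.1-fold between group means. It was at 43.1 and 43.9 CPM with ARID1A WT and at 37.0 and 35.5 CPM with ARID1B WT, against 0.317, 0.629, 1.44 and 1.56 CPM in EV. M2 gave 25.4 and 23.6 CPM, delIDR1 17.0 and 14.1, DBDmut 12.9 and 12.1, CBR 10.1 and 9.98, and A457_G461del 8.80 and 8.77 CPM. DDX4 gave 5.56 and 6.37 CPM, AQGscram 5.44 and 4.13, Block13del 4.35 and 3.90, Block9del 2.13 and 2.78, and 42YS 1.70 and 1.85 CPM. Libraries of every construct were above all EV libraries, by little in the case of 42YS.

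FBLN2 rose with all 12 constructs in edgeR's quasi-likelihood test, with p adjusted over all 14220 genes. The log2 fold change was 5.54 ± 0.22 with ARID1A WT (adjusted p = 7.68e-14), 5.28 ± 0.22 with ARID1B WT (adjusted p = 2.72e-13) and 4.72 ± 0.23 with M2 (adjusted p = 1.68e-12). It was 2.14 to 4.06 with delIDR1, DBDmut, CBR, A457_G461del, DDX4, AQGscram and Block13del. The smallest rises were 1.39 ± 0.30 with Block9del (adjusted p = 0.00144) and 0.94 ± 0.33 with 42YS (adjusted p = 0.0325). EV itself was not uniform for FBLN2, since replicates 1 and 2 were lower than replicates 3 and 4 (log2 difference -1.66 ± 0.35, adjusted p = 0.000252). Against EV replicates 3 and 4 alone the 42YS value was 0.24 (adjusted p = 0.476), and it also missed the threshold without either 42YS library or without EV replicate 1 or 2. With only the 2 groups compared in the fit, the FBLN2 rises with AQGscram (2.30), Block13del (2.09), Block9del (1.36) and 42YS (0.88) were not called.

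Against its own EV pair, FBLN2 was at a log2 fold change of 6.50 with ARID1A WT and 4.59 with ARID1B WT. The levels of the wild types themselves were close: 43.5 ± 0.578 CPM with ARID1A WT and 36.3 ± 1.09 CPM with ARID1B WT. Their direct log2 difference was 0.26 (adjusted p = 0.411), whereas the difference between own-pair responses was 1.92 ± 0.36 (adjusted p = 0.000112). FBLN2 also separated ARID1A mutants from WT. Relative to ARID1A WT it was lower with CBR (-2.12 ± 0.21, adjusted p = 1.52e-07), delIDR1 (-1.48 ± 0.20, adjusted p = 1.23e-05), DBDmut (-1.80 ± 0.21, adjusted p = 7.98e-06) and DDX4 (-2.86 ± 0.22, adjusted p = 3.8e-09).

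Across the mutants, FBLN2 and ELN did not have one order. DBDmut had about the FBLN2 level of CBR, 12.5 and 10.03 CPM on average, but less ELN, 4.17 and 22.5 CPM. ARID1A WT and ARID1B WT were close in FBLN2 and far apart in ELN. These are differences between group means of levels, and the difference between the genes was not tested.

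FBN1, which encodes fibrillin-1, the main microfibril protein of adult tissue, was well expressed without a construct and moved less. It was at 668 and 672 CPM with ARID1A WT, 628 and 638 CPM with M2, and 512 and 563 CPM with ARID1B WT, against 406, 388, 218 and 221 CPM in EV. DBDmut gave 492 and 525 CPM. These 8 libraries were above all EV libraries. The lowest and highest libraries of CBR, delIDR1, A457_G461del and DDX4 were at 293 and 378 CPM, between the EV pairs, and those of Block13del, Block9del, 42YS and AQGscram at 145 and 299 CPM.

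FBN1 rose with ARID1A WT (log2 fold change 1.12 ± 0.20, adjusted p = 0.000102), M2 (1.04, adjusted p = 0.00023), ARID1B WT (0.80 ± 0.20, adjusted p = 0.00277) and DBDmut (0.72 ± 0.20, adjusted p = 0.00758). These 4 rises also passed with either EV pair alone, at 0.75 for ARID1A WT and 0.36 for DBDmut against replicates 1 and 2, and at 1.29 for ARID1B WT and 1.53 for M2 against replicates 3 and 4. FBN1 fell with AQGscram (-0.72 ± 0.21, adjusted p = 0.0165) and 42YS (-0.57 ± 0.21, adjusted p = 0.0416). Both falls missed the threshold against EV replicates 3 and 4, at -0.24 (adjusted p = 0.106) and -0.07 (adjusted p = 0.621), and the AQGscram libraries, at 229 and 145 CPM, overlapped EV. Without AQGscram replicate 2 that value was -0.43 and was no longer called; the 42YS fall was not called without either of its libraries or without EV replicate 1 or 2. The DBDmut rise was not called without DBDmut replicate 2 (0.67).

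The 2 EV pairs differed in FBN1 as much as several constructs differed from EV: 397 ± 13.3 CPM in replicates 1 and 2 and 220 ± 2.58 CPM in replicates 3 and 4 (log2 difference 0.85 ± 0.11, adjusted p = 2.64e-07). Between the pairs FBN1, FBLN1, FBLN2 and EFEMP2 were all called, as were 58.5% of all tested genes. The direction of FBN1 with delIDR1 therefore depended on the control: -0.36 (adjusted p = 0.0062) against its own pair and 0.49 against replicates 3 and 4. CBR was at -0.11 (adjusted p = 0.408) against its own pair and at 0.75 (adjusted p = 1.41e-06) against replicates 3 and 4. In all, FBN1 had opposite signs against the 2 pairs with 6 of 12 constructs. DDX4 was at 0.42 (adjusted p = 0.00246) against its own pair and at -0.43 against replicates 1 and 2. With all 4 EV libraries, delIDR1 was at 0.003 (adjusted p = 0.992) and DDX4 at -0.07 (adjusted p = 0.812).

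EFEMP2, the gene for fibulin-4, which recruits lysyl oxidase to tropoelastin, varied 2.32-fold between group means. It was at 168 and 171 CPM with ARID1A WT, 155 and 166 CPM with ARID1B WT, and 164 and 166 CPM with M2, against 108, 119, 96.5 and 85.7 CPM in EV. CBR, delIDR1 and DBDmut lay at 139 to 160 CPM, also above every EV library. All 6 rises passed the test, with log2 fold changes of 0.73 ± 0.10 for ARID1A WT (adjusted p = 5.73e-06), 0.65 for ARID1B WT (adjusted p = 2.84e-05) and 0.49 to 0.69 for the other 4. The 6 rises were called with either EV pair.

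In the other direction, EFEMP2 fell with Block9del (-0.49, adjusted p = 0.00121), 42YS (-0.41, adjusted p = 0.00491) and Block13del (-0.40, adjusted p = 0.00541), whose libraries lay at 70.6 to 84.7 CPM. These falls too were called with either pair; the Block13del fall was lost without Block13del replicate 1 (-0.27) and the 42YS fall without 42YS replicate 1 (-0.41). DDX4, AQGscram and A457_G461del were at -0.11, -0.14 and 0.01 and did not pass the test (adjusted p = 0.416, 0.325 and 0.967). Against EV replicates 1 and 2 alone, EFEMP2 fell with DDX4 (-0.26, adjusted p = 0.00707) and AQGscram (-0.29, adjusted p = 0.00339). DDX4 had 92.7 and 97.3 CPM, within the EV range. Relative to ARID1A WT, EFEMP2 was lower with DDX4 (-0.84 ± 0.12, adjusted p = 1.53e-05), and -0.52 ± 0.11 (adjusted p = 0.000487) as a difference between own-pair responses.

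FBLN1, which encodes fibulin-1, a protein of elastic fibres and basement membranes, was the steadiest of the 5 well expressed members, with 1.53-fold between group means. It had 426 and 430.1 CPM with ARID1A WT and 378 and 383 CPM with ARID1B WT, against 442, 441, 488 and 478 CPM in EV. It fell with 8 constructs: DDX4, ARID1B WT, M2, AQGscram, 42YS, A457_G461del, Block13del and Block9del, by log2 fold changes of -0.54 to -0.21. The 4 constructs of the first library set, ARID1A WT, CBR, delIDR1 and DBDmut, were at -0.11, 0.07, 0.03 and 0.03 and did not pass the test. With a single EV pair, CBR rose against replicates 1 and 2, its own (0.14, adjusted p = 0.0327), and ARID1A WT fell against replicates 3 and 4 (-0.17, adjusted p = 0.00748). The DDX4 fall (-0.21 ± 0.063, adjusted p = 0.0141) was not called without DDX4 replicate 1 (-0.17); the 8 falls were called with either EV pair. FBLN1 did not follow ELN: it was lowest with Block13del, Block9del and A457_G461del; of these, A457_G461del was among the 5 constructs highest in ELN.

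**Figure D3:**
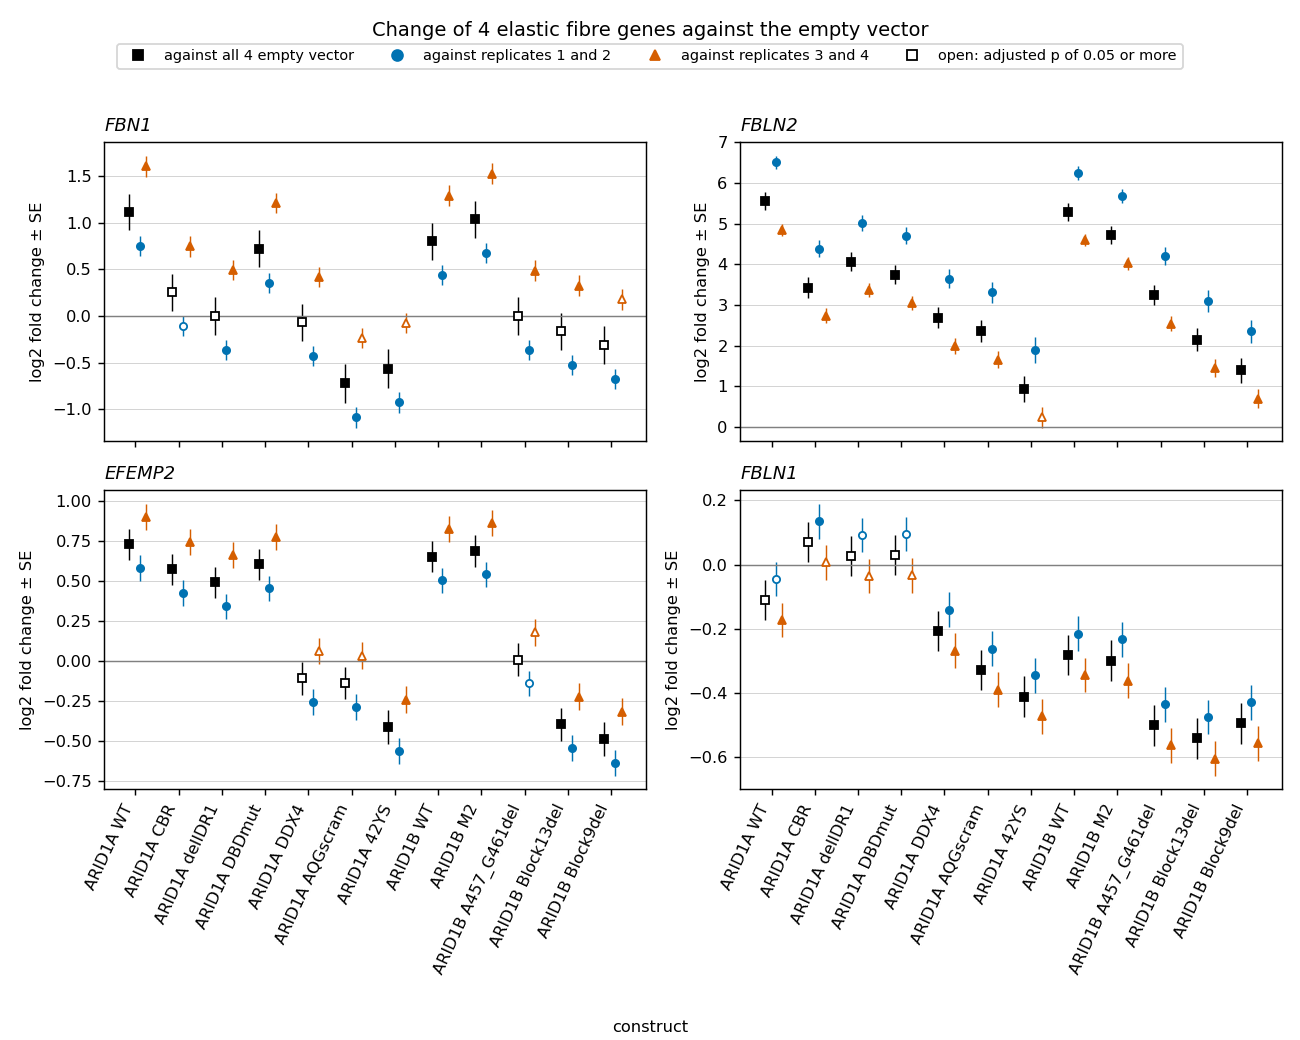
Log2 fold change against EV with its SE for FBN1, FBLN1, FBLN2 and EFEMP2 in the 12 constructs. Values against each EV pair alone stand beside it, also for constructs that have no EV pair of their own. FBLN2 is above 0 in all 12 constructs, and the FBN1 value changes sign between all EV libraries and the construct's own pair for CBR, delIDR1 and DDX4.

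The remaining members were near the detection limit. EFEMP1, the gene for fibulin-3, had 48 reads over the ARID1B WT libraries (20 and 28), against 1 read in the 4 EV libraries, a ratio of 94.5 with a 95% interval of 16.2 to 3809 that covers counting error only. DBDmut had 9 EFEMP1 reads, a ratio of 16.4 (2.27 to 719.6), and M2 had 5. FBLN5, whose product fibulin-5 tethers elastin to cells, had 11 reads with ARID1A WT (3 and 8) and 7 with ARID1B WT (3 and 4). EV had 0 FBLN5 reads. Against a floor of 3 counts over the EV group these were 7.40-fold and 4.59-fold higher, with the construct's own count taken as exact. FBLN5 had 31 reads in all 28 libraries, 14 of which held at least 1.

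LOXL1, a lysyl oxidase of elastic tissue, had 10 reads with M2, 7 with DBDmut, 5 with ARID1A WT, 4 with ARID1B WT and 4 with delIDR1, against 0 in EV. Against the same floor, with each construct's own count taken as exact, these were 5.32-fold, 4.26-fold, 3.36-fold, 2.62-fold and 2.289-fold higher. The ARID1B WT libraries held 0 and 4 of these reads. LOX, the founding lysyl oxidase, had 37 reads over all libraries and 4 in EV, with 7 in delIDR1 and 5 in CBR. FBN2, the fibrillin of embryonic tissue, had 11 reads over all libraries and 2 in EV. On the other strand, the LOX locus carried 514 reads (6 to 36 per library), which the counted column leaves out; their origin was not tested.

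Levels can be set side by side between members only per length. Per kilobase of exon (GENCODE release 29 lengths), ARID1B WT cells had 110.3 ± 3.56 CPM of ELN, 79.0 of EFEMP2, 77.2 of FBLN1, 35.0 of FBN1 and 7.78 of FBLN2. In ARID1A WT cells the order was FBLN1 (86.9), EFEMP2 (83.3), FBN1 (43.6), ELN (11.3) and FBLN2 (9.34). In EV cells it was FBLN1 (93.8), EFEMP2 (50.3), FBN1 (20.1), FBLN2 (0.212) and ELN (0.0369). ELN was thus last of these 5 genes in EV and first with ARID1B WT on this scale.

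Counted per comparison, the 4 tested members other than ELN and EFEMP1 are read against the shares of all tested genes that rose or fell. With ARID1A WT 3 rose and 0 fell, where 21.1% of all genes rose and 23.5% fell. With ARID1B WT 3 rose and 1 fell, where 19.2% and 23.9% of all genes did. With M2 3 rose and 1 fell (22.1% and 25.1% of all genes), and with DBDmut 3 rose and 0 fell (16.9% and 18.3%). These 4 constructs had the most rises, a larger share of the 4 members than of all genes. CBR had 2 rises and 0 falls (25.2% and 27.8% of all genes), and delIDR1 2 rises and 0 falls (22.4% and 27.7%).

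Each of the other constructs had 1 rise, that of FBLN2, and 1 of 4 members is close to the share of all genes that rose in most of these comparisons. DDX4 had 1 fall beside it, where 19.7% of all genes rose and 19.8% fell, and A457_G461del 1 fall (19.1% and 19.9%). AQGscram had 2 falls (10.9% and 13.7%), Block13del 2 falls (19.1% and 20.2%) and Block9del 2 falls (17.8% and 21.2%). With 42YS 3 members fell (15.8% and 18.0%). The median log2 fold change over these members was highest with ARID1A WT (0.92) and M2 (0.86) and lowest with 42YS (-0.41), while medians over all tested genes lay between -0.07 and 0.02.

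Direct comparisons between constructs gave few called members in the fit of all libraries. The spread in that fit, used for every comparison, holds the difference between the EV pairs, which form 1 group there. With only the 2 groups compared in the fit, several of these comparisons called more members, EFEMP1 included, as given in the closing section. Against ARID1A WT, CBR had 1 rise, FBLN1 (0.18 ± 0.072, adjusted p = 0.0459), and 2 falls, FBLN2 and FBN1 (-0.86 ± 0.23, adjusted p = 0.00519), where 22.2% of all genes rose and 25.3% fell. The FBLN1 rise was lost when any 1 of the 4 libraries was left out. Against ARID1A WT, delIDR1 had 0 rises and 2 falls (17.4% and 22.7% of all genes), FBLN2 and FBN1 (-1.11 ± 0.23, adjusted p = 0.000982). DBDmut had 0 rises and 1 fall, FBLN2, where 0.999% of all genes rose and 4.62% fell. DDX4 had 0 rises and 3 falls (16.8% and 19.6%): FBLN2, EFEMP2 and FBN1 (-1.19 ± 0.23, adjusted p = 0.000568). As a difference between own-pair responses the FBN1 value was -0.33 ± 0.15 (adjusted p = 0.0743), so its fall relative to WT was not called once each construct was set against its own EV pair. By that measure 3 members were called (FBLN2, EFEMP2 and FBLN1) where 50.5% of all genes were called in either direction.

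Between the wild types, ARID1A WT against ARID1B WT, 0 of these 4 members were called in edgeR, where 8.96% of all genes rose and 4.56% fell; 1 was called by DESeq2 (FBLN1, 0.18), and 1 had an unadjusted p under 0.05 in either tool. FBN1 was at 0.32 ± 0.23 (adjusted p = 0.408) directly and at -0.54 ± 0.15 (adjusted p = 0.00605) as the difference between own-pair responses, so its direction turned with the control. By own-pair responses 3 members were called (FBLN2, FBN1 and FBLN1), where 41.6% of all genes were called in either direction. M2 against ARID1B WT also had 0 of the 4 called in edgeR, where 8.31% of all genes rose and 6.01% fell, with 1 at an unadjusted p under 0.05 in either tool. FBLN2 was at -0.56 with M2 (adjusted p = 0.0621) and was the 1 member called by DESeq2 (-0.57). FBN1 was at 0.23, EFEMP2 at 0.04 and FBLN1 at -0.02 (adjusted p = 0.58, 0.887 and 0.916).

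Among constructs of the third library set, FBLN2 was the member called most often. It was lower with 42YS than with AQGscram (-1.42 ± 0.28, adjusted p = 0.00197), the 1 call where 8.24% of all genes rose and 7.54% fell. It was higher with A457_G461del than with Block13del (1.09 ± 0.24, adjusted p = 0.00878), again the 1 call where 3.59% rose and 1.89% fell, which was lost when any 1 of the 4 libraries was left out. Against Block9del it was higher by 1.84 ± 0.25 (adjusted p = 4.34e-05) with A457_G461del, and EFEMP2 by 0.49 ± 0.12 (adjusted p = 0.00764), 2 calls where 8.2% rose and 4.39% fell. Without A457_G461del replicate 1 or Block9del replicate 1 the EFEMP2 call was lost. Block13del against Block9del had 0 members called in edgeR (0.471% of all genes), 0 by DESeq2, and 1 at an unadjusted p under 0.05 in either tool. ELN, described without a test, was higher by log2 1.17 with A457_G461del than with Block13del and by 3.50 with Block13del than with Block9del.

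Genes that build and remodel the fibre were counted in 4 lists; medians of log2 fold changes over all tested genes were -0.06 with ARID1A WT and -0.07 with ARID1B WT. Of 6 tested genes of cross-linking, 3 rose and 1 fell with ARID1A WT (median log2 fold change 0.78). LOXL2, a lysyl oxidase of collagen and elastin, was at 234 ± 2.20 CPM with ARID1A WT, against 15.5 ± 2.20 CPM in EV (log2 fold change 3.91 ± 0.08, adjusted p = 3.1e-18). BMP1, the protease that releases active lysyl oxidase, rose by 0.86 (adjusted p = 3.79e-08). LOXL4 was at 1.42 CPM with no read in EV, 36.8-fold higher against the floor of 3 counts over EV. It passed the filter on low counts through construct libraries, so it is given without a test. The list counts include such genes. ATP7A, the copper pump that loads lysyl oxidases, fell (-0.86, adjusted p = 0.00681). This fall was not called against EV replicates 3 and 4 (-0.40, adjusted p = 0.11), which are not the own pair of ARID1A WT. With ARID1B WT 4 of the 6 rose and 2 fell (median 0.81), with LOXL2 at 145 ± 5.40 CPM (3.21, adjusted p = 6.62e-17). Both medians are the same with LOXL4 set against that floor of 3 counts. The falls with ARID1B WT, ATP7A (-0.68) and LOXL3 (-1.18), were not called against EV replicates 3 and 4 (-0.21 and -0.58).

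Of 11 tested microfibril genes, 7 rose and 0 fell with ARID1A WT (median 1.74), and 4 rose and 0 fell with ARID1B WT (median 0.36). ADAMTSL4, which binds fibrillin-1, rose by 2.293 with ARID1A WT (adjusted p = 3.58e-16) and by 1.28 with ARID1B WT (adjusted p = 1e-11). MFAP4 and MFAP2 passed the filter on low counts through construct libraries, so they are given without a test. MFAP4, a microfibril-associated protein that binds elastin, was at 7.08 ± 1.65 CPM with ARID1A WT and 4.25 ± 0.801 CPM with ARID1B WT, against 1 read in EV. MFAP2, a small microfibril glycoprotein, was at 2.72 ± 0.499 CPM with ARID1B WT (fitted log2 fold change 4.21). It was at 0.0827 CPM with M2, against 0.142 CPM in EV. In this gene M2 was at EV level although its ELN level was 333 CPM.

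Of 6 tested elastin-cleaving or activating proteases, 1 rose and 2 fell with each wild type (median -0.24 with ARID1A WT and -0.02 with ARID1B WT). MMP2, a gelatinase that also cleaves elastin, had fitted log2 fold changes of 9.49 with ARID1A WT and 10.87 with ARID1B WT. It too passed the filter through construct libraries and is given without a test. The cathepsin CTSL fell with both wild types (-0.35 and -0.24, adjusted p = 0.00134 and 0.0173). The ARID1B WT fall of CTSL was not called against EV replicates 3 and 4 (-0.10, adjusted p = 0.199). With CBR, MMP2 was at 0.113 CPM, against 0.114 CPM in EV (log2 fold change -0.03), although CBR had 22.5 CPM of ELN. MMP2 and ELN thus parted in CBR. Of 7 tested binding partners, 6 rose with ARID1A WT (median 1.48) and 7 with ARID1B WT (median 2.93), among them ITGB5, a subunit of an integrin that binds elastin and fibrillin (2.77 and 2.93, adjusted p = 9.31e-18 and 6.85e-18).

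Over the other constructs, rises in the microfibril and cross-linking lists were fewest with 42YS, Block13del and Block9del. Of the 11 microfibril genes, 8 rose and 1 fell with CBR, 7 rose and 2 fell with delIDR1, 6 rose and 1 fell with DBDmut, 5 rose and 1 fell with M2, and 3 rose and 1 fell with DDX4. With AQGscram 2 rose and 1 fell, with A457_G461del 2 rose and 2 fell, with 42YS and Block13del 1 rose and 2 fell each, and with Block9del 0 rose and 2 fell. Against its own EV pair, delIDR1 had 6 rises and 4 falls, CBR 7 rises and 2 falls, DBDmut 6 rises and 2 falls, M2 5 rises and 1 fall, and DDX4 5 rises and 1 fall. For Block9del, which has no pair of its own, EV replicates 1 and 2 gave 0 rises and 5 falls, and replicates 3 and 4 gave 0 rises and 3 falls. Of the 6 cross-linking genes, 4 rose and 1 fell with CBR, delIDR1 and M2 each, 3 rose and 1 fell with DBDmut and A457_G461del each, and 3 rose and 0 fell with DDX4. With AQGscram 2 rose and 0 fell, with 42YS and Block13del 0 rose and 0 fell, and with Block9del 0 rose and 1 fell. LOXL2 fell with Block9del (-0.47, adjusted p = 0.00061), to 11.2 CPM, against 15.5 CPM in EV, whereas it was at 36.1 CPM with A457_G461del. The counts against all 4 EV libraries stand beside the shares of all tested genes that rose or fell, given above for each construct. For the counts against a single EV pair no such shares are given, so those counts are descriptions.

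**Figure D4:**
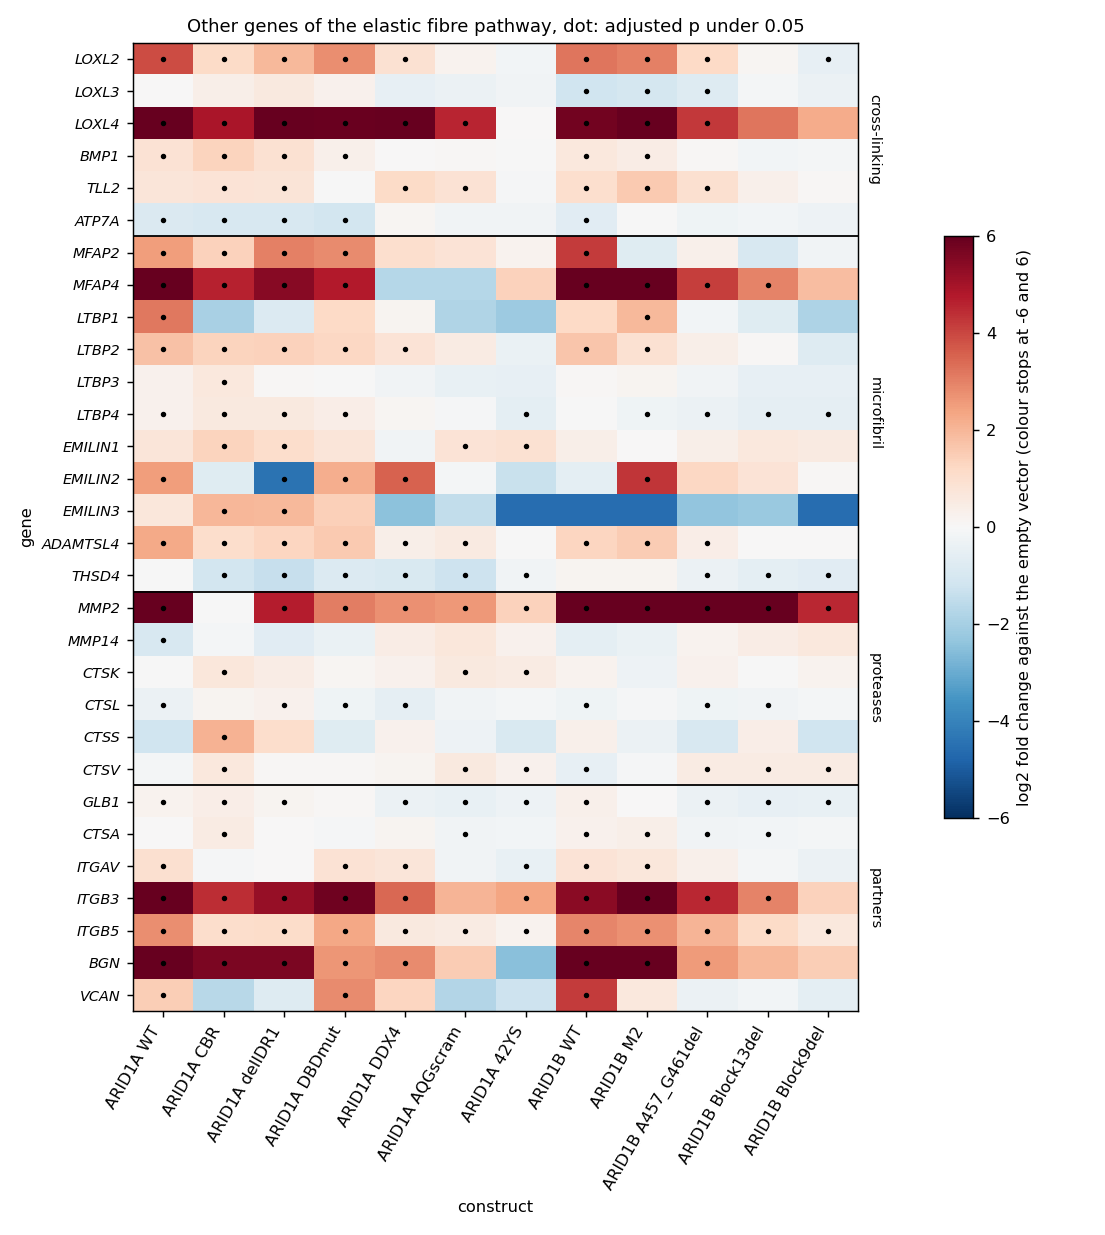
Heat map of fitted log2 fold changes against EV of the tested genes of the 4 lists (rows) in the 12 constructs (columns), with called genes marked. LOXL2, ADAMTSL4, ITGB5 and MMP2 are high in ARID1A WT, ARID1B WT and M2; for genes with few reads in EV, such as LOXL4 and MFAP4, the fitted value is no bound.

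Likeness to ELN was taken as Pearson's r of group means of log2 CPM over the 13 groups. It was computed for 11065 genes averaging 1 or more in log2 CPM, without LOC, LINC, MIR, SNOR, antisense and dotted names. The 5 most like ELN were SEMA5B (0.977), PTPN1 (0.966), PRRT4 (0.960), VASN (0.959) and BCAN (0.958). The size of a change does not enter r: PTPN1 had 94.5 CPM with ARID1A WT and 99.9 CPM with ARID1B WT, against 77.8 CPM in EV. SEMA5B, which encodes a semaphorin, had 5.24 CPM with ARID1A WT and 16.9 CPM with ARID1B WT, and no read in EV. VASN, the gene for the membrane protein vasorin, had 70.4 CPM with ARID1A WT and 89.5 CPM with ARID1B WT, against 2.99 CPM in EV. Among the members, r with ELN was 0.861 for FBLN2, 0.794 for FBN1, 0.735 for EFEMP2 and 0.036 for FBLN1. The 13 points share the EV libraries as low end and the library sets, so these are descriptions.

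Markers of other cell types were read beside these results. The 4 endothelial markers summed to 0 to 0.585 CPM in all libraries, and none was tested. The 3 leukocyte markers, of which 1, CD68, was tested, summed to 14.8 to 16.5 CPM with ARID1A WT and 13.7 to 13.8 CPM with ARID1B WT, against 1.59 to 2.75 CPM in EV. The 4 smooth muscle markers, all tested and mostly ACTA2, summed to 79.2 to 81.5 CPM with ARID1A WT and 37.4 to 42.1 CPM with ARID1B WT, against 29.6 to 29.8 CPM in EV replicates 1 and 2 and 6.63 to 6.80 CPM in replicates 3 and 4. The 6 fibroblast markers, 3 of them tested, summed to 1930 to 3756 CPM over all libraries, nearly all COL1A2, with LUM and DCN at 0 in the wild types and EV, while PDGFRB was at 33.9 CPM with ARID1A WT and 19.2 CPM with ARID1B WT, against 1.61 CPM in EV.

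The 8 epithelial and endometrial markers, 5 of them tested and mostly KRT18, summed to 52.1 to 52.9 CPM with ARID1A WT and 50.03 to 51.4 CPM with ARID1B WT, against 11.4 to 14.3 CPM in EV. EPCAM, CDH1 and PAX8 were near 0 and ESR1 and PGR at 0 in these groups, although the cells are labelled endometrial carcinoma. The part of these marker lists in the ELN and FBLN2 levels was not tested. In bulk RNA, fewer cells with a transcript and less transcript per cell cannot be told apart.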

How the data were processed

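The deposited counts are raw reads per gene symbol in the 4-column layout of STAR, with no normalization by the authors. Per the submitters' processing notes, bcl2fastq, STAR 2.5.2b, Bowtie2 2.29 and genome build hg19 were used; the role of each tool and the gene annotation are not given in the sources used here. The opposite-strand column was used, and 21.6 to 36.3% of reads named no gene and stayed out. Reads of a gene and of an overlapping gene on the same strand cannot be told apart.

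Genes were filtered with filterByExpr by group, scaled by TMM and fitted in 1 edgeR 4.0.16 quasi-likelihood model of 28 libraries and 13 groups in R 4.3.3. Calls need a Benjamini-Hochberg adjusted p under 0.05 over 14220 genes, two-sided. CPM use TMM library sizes, and each SE is the absolute log2 fold change divided by the root of F. Floors allow for counting error in EV, with the construct's own count taken as exact. Intervals cover counting error only. All 10 members were named in every comparison, and up to 4 called genes per pathway list by smallest p, of which a part is printed. DESeq2 1.42.0 served as an alternative. Tables and figures used Python 3.11.15 with matplotlib 3.10.9, scipy 1.17.1, numpy 2.4.6 and pandas 2.3.3. The members, the gene lists and the tests were chosen with earlier results of these data known.

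No 2 libraries agreed within sampling noise: chi-square over degrees of freedom was 1.18 to 28.84 between replicates of a group within a library set, the highest being AQGscram, and 78.01 to 85.26 between EV replicates of different sets.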

Additional observations from a re-analysis of the deposited data

Results flagged for a closer look

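The response to a construct differed between constructs for 6 values, each the difference between a construct's change from its own EV pair and another's change from its own pair, tested by edgeR's quasi-likelihood F test over all genes. For DDX4 minus ARID1A WT the log2 differences were -4.52 for FBLN2 (adjusted p = 1.92e-10), -0.52 for EFEMP2 (adjusted p = 0.000487) and -0.22 for FBLN1 (adjusted p = 0.0166), where 50.5% of all tested genes were called. For ARID1A WT minus ARID1B WT they were 1.92 for FBLN2 (adjusted p = 0.000112), -0.54 for FBN1 (adjusted p = 0.00605) and 0.30 for FBLN1 (adjusted p = 0.00254), where 41.6% were called. FBLN2, FBN1 and FBLN1 also differed between the EV pairs themselves, by -1.66, 0.85 and -0.13 (replicates 1 and 2 against 3 and 4), and each construct stands in the library set of its pair. The part of the library sets in these 6 values was not tested.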

How the results depend on the processing

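Counts of members called are here of the 5 other than ELN, EFEMP1 included. Apart from the main fit and own-pair responses, no share of all tested genes is given for these settings. Such counts describe how the calls moved and are no result about the members. Without EFEMP1 the main fit called 0 members for ARID1A WT against ARID1B WT and for M2 against ARID1B WT. Against EV it then called 3 for DBDmut and 4 for ARID1B WT. The counts with EFEMP1 moved by over 1.5 times as follows. With only the 2 groups compared in the fit, the count against EV was 2 instead of 4 for DBDmut and M2, 1 instead of 2 for DDX4, 3 instead of 5 for ARID1B WT, 0 instead of 3 for AQGscram, 1 instead of 4 for 42YS, and 1 instead of 3 for Block13del and Block9del. Between constructs it was 4 instead of 2 for delIDR1 against WT, 2 instead of 1 for DBDmut against WT, 4 instead of 1 for ARID1A WT against ARID1B WT, 3 instead of 1 for M2 against ARID1B WT and 2 instead of 1 for A457_G461del against Block13del. The replicate block, in which EV replicates 3 and 4 have levels of their own, gave 4 for DDX4 against EV, 4 for delIDR1 and 2 for DBDmut against WT, 4 for ARID1A WT against ARID1B WT, 2 for M2 against ARID1B WT, 2 for 42YS against AQGscram, 2 for A457_G461del against Block13del and 1 for Block13del against Block9del. Over 78 pairs of groups, deviations of same-numbered libraries correlated at -0.38 to 0.36 (median 0.01), with 8 pairs above 0.1. What else the replicate numbers share was not tested. EV replicates 1 and 2 alone gave 4 for DDX4, and replicates 3 and 4 alone 2 for 42YS. For ARID1A WT against ARID1B WT, the filter at an average log2 CPM of at least 1 gave 0, reads counted without strand 2, DESeq2 2 and own-pair responses 3. For M2 against ARID1B WT that filter gave 0, no filter 2 and reads without strand 2. For A457_G461del against Block13del, that filter, no filter and DESeq2 gave 2 each. Leaving out 1 library gave 2 to 4 for DBDmut, 1 to 2 for DDX4 and 1 to 4 for 42YS against EV, 1 to 2 for 42YS against AQGscram, 0 for A457_G461del against Block13del and 1 to 2 for A457_G461del against Block9del; a lone library is then assumed to vary like the other groups.

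FBN1 changed sign for DDX4 (0.42), A457_G461del (0.49), Block13del (0.32) and, uncalled, Block9del (0.18) with EV replicates 3 and 4, for delIDR1 (-0.36) and, uncalled, CBR (-0.11) with EV replicates 1 and 2 and with the replicate block, and for ARID1A WT against ARID1B WT (-0.54) with own-pair responses. ELN of 42YS against AQGscram ranged from -0.92 to 0.098 with 1 library left out, above 0 without 42YS replicate 2. The cause of these changes was not tested. RLE in place of TMM factors left 109 of 110 values of single tested members on their side of the threshold with their direction, and DESeq2 left 106. Depth limits what can be said of FBN2, FBLN5, LOX and LOXL1.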
